A study of Mus musculus with 12 samples.

Results

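Respiratory complex I is the enzyme through which electrons from NADH enter the mitochondrial respiratory chain, and the RNA of its nuclear-encoded subunits was followed here across 4 populations of fat cell precursors. The members are the rows of the count table whose symbol is Nduf, then a, b, c, s or v, then a digit, with the related gene Ndufa4l2 left out. There were 38 members among 31099 genes, and all 38 were among the 18855 genes that passed the filter on low counts. The rule reads symbols only and uses no measured value. It takes in Ndufa4, once counted as a complex I subunit and now placed in complex IV, Ndufb1-ps, which the annotation lists as a noncoding RNA from a bidirectional promoter, and Ndufa11b, a processed pseudogene. The other 35 rows are protein-coding genes of the complex.

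The cells came from CD-1 mouse pups of both sexes, 3 days old, and the labels name no transgene or treatment. Perivascular fat was taken with the thoracic aorta, and inguinal white fat from the same pups. From the inguinal fat DPP4+ progenitors and ICAM1+ preadipocytes were sorted, and from the perivascular fat progenitors and preadipocytes. Each of the 4 groups holds 3 libraries, 1 for each pool of pups, and the library number names the pool in all groups. The count table heads the perivascular progenitor columns EarlyProg, which was read as the labels' perivascular progenitors. The sources used here do not give the surface markers of the perivascular sorts, so depot and sort gate cannot be told apart.

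In mammals the complex is L-shaped. The N module at the tip of its matrix arm oxidises NADH, the Q module passes the electrons to ubiquinone, and the membrane arm, whose proton channels are encoded by the mitochondrial genome, pumps protons out of the matrix. Brown fat, which thoracic perivascular fat of mice resembles, is rich in mitochondria, and its uncoupling protein UCP1 lets those protons flow back so that the energy is released as heat.

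Total counts ran from 15614628 to 25674461 per library. Dpp4 lay between 1461 and 1593 CPM (counts scaled to a common library total after TMM adjustment) in the DPP4+ libraries and at most at 97.2 CPM elsewhere, and Icam1 between 485 and 507 CPM in the ICAM1+ libraries and at most at 102 CPM elsewhere. Adipoq, an adipocyte hormone gene, reached 322, 872 and 1095 CPM in perivascular preadipocyte libraries 1, 2 and 3, against 21.2 to 32.6 CPM in the ICAM1+ libraries. Of the 10 adipocyte markers listed, 8 were higher in perivascular than in ICAM1+ preadipocytes, Lpl was lower (log2 fold change -0.52, edgeR adjusted p = 0.0385) and Cd36 stood at -0.77 without a call. The list summed to 4306 to 4793 CPM in the ICAM1+ libraries.

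The members were most abundant in perivascular preadipocytes. Summed over the 38 genes, their level was 4761, 9310 and 12089 CPM in perivascular preadipocyte libraries 1, 2 and 3. The sum was 3344, 3154 and 2754 CPM in the perivascular progenitors, 2667, 2277 and 3001 CPM in the DPP4+ progenitors, and 3319, 2846 and 2874 CPM in the ICAM1+ preadipocytes. Every perivascular preadipocyte library thus lay above the other 9 libraries, and those 9 overlapped between groups on this TMM-adjusted scale. The group means were 8720 ± 3699 CPM (SD, n = 3) in perivascular preadipocytes, 3084 ± 301 in perivascular progenitors, 2648 ± 362 in DPP4+ progenitors and 3013 ± 265 in ICAM1+ preadipocytes. As a share of all counts, without any scaling between libraries, the members took 1.04% ± 0.457 of the perivascular preadipocyte counts, 0.326% ± 0.0378 of the perivascular progenitor counts, 0.206% ± 0.0195 of the DPP4+ counts and 0.306% ± 0.0337 of the ICAM1+ counts. On this unscaled share the DPP4+ libraries, at 0.185% to 0.223%, all lay below every other library, the lowest of which stood at 0.283%. In bulk libraries such as these, fewer cells of a type and less RNA per cell cannot be told apart.

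**Figure D1:**
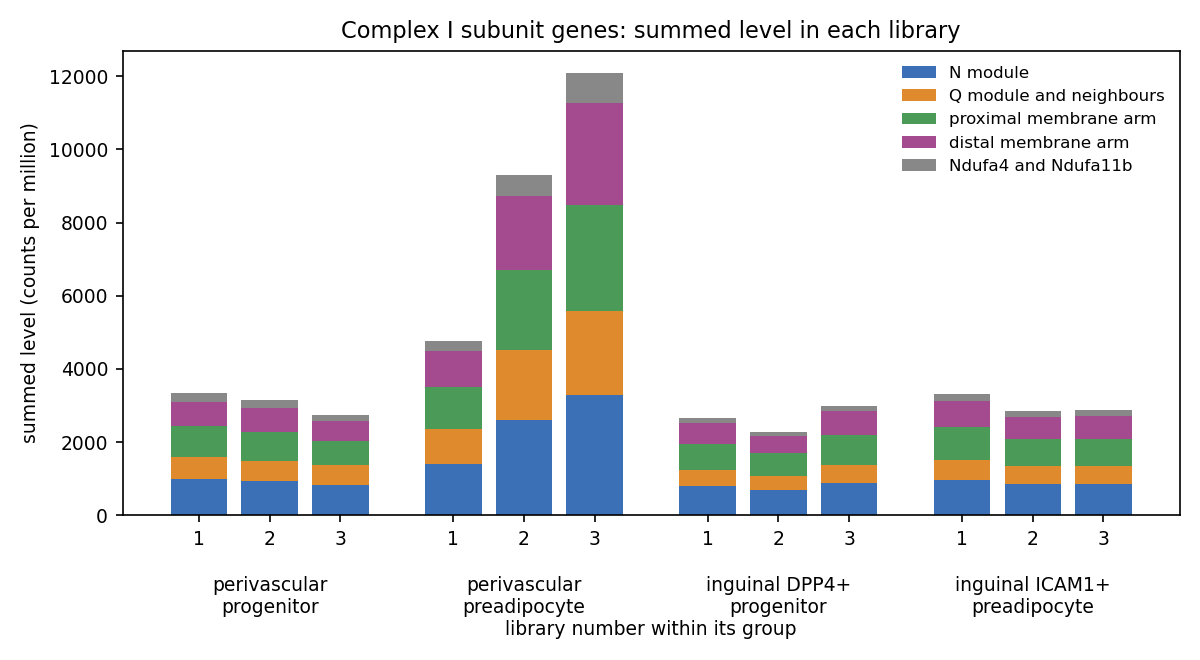
Summed level of the 38 members in each of the 12 libraries, in CPM on a linear axis from 0, with each bar split by the part of complex I that the genes belong to. The perivascular preadipocyte bars reach 4761, 9310 and 12089 CPM and all other bars stay at or below 3344 CPM.

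The perivascular preadipocyte libraries were far apart from each other. Library 1 lay below the mean of the other libraries of its group for 38 of 38 members, with a median log2 difference of -1.19, while the median over all genes was -0.072. Library 3 lay above the mean of the other libraries of its group for 38 of 38 members, by a median of 0.90. The summed level of the adipocyte markers followed the same order, at 3215, 7149 and 7787 CPM in libraries 1, 2 and 3. Ucp1 was also lowest in library 1 but highest in library 2, at 64.8, 225 and 195 CPM. Plin1, Cidec, Lipe, Pnpla2 and Cidea were likewise highest in library 2. The library 1 sum of these markers lay below the ICAM1+ libraries, but only through Lpl and Cd36. Lpl was at 1539.5 CPM in library 1 and 2778.7 to 3260.6 CPM in the ICAM1+ libraries. Cd36 was at 279.76 against 793.6 to 896.66 CPM. Each other adipocyte marker listed was higher in library 1 than in every ICAM1+ library, such as Adipoq, at 322 against 21.2 to 32.6 CPM. The part of these markers in the members' levels was not tested.

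The promoters are shown because most members were called in the same direction in the comparisons below that hold perivascular preadipocytes. Their control sequences were not used to choose them. RefSeq start sites (GRCm38.p6, the same assembly as mm10) matched 32 of the 38 members, with a window from 250 bases before to 50 bases after the start. Those without a match included Ndufa2, Ndufa11b, Ndufb1-ps, Ndufb9 and Ndufs1. The motifs of 4 factors or factor families known to act on mitochondrial genes were searched on both strands, as exact letters, and a gene with several starts counted if any window held the motif. The YY1 motif AAGATGGCG stood in 5 of the 32 windows (15.6%), against 1.64% of the 27025 genes with a window. It contains the letters ATG, with which coding sequences begin, and whether it lies on a start codon was not tested. The 27025 genes were not matched to the members for coding status or for the distance from the start to the coding sequence. The NRF1 motif GCGCATGCG stood in 2 windows (6.25%, against 1.95% of all genes), the ETS family motif CCGGAAG in 4 (12.5%, against 9.93%) and the estrogen-related receptor motif AAGGTCA in 3 (9.38%, against 5.38%). No 2 of these motifs overlapped in a member window, except that the NRF1 motif of Ndufa11 overlaps its own reverse complement. A match of letters is a description and not a bound site.

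The 5 windows with the YY1 motif belong to genes of all parts but the distal membrane arm: Ndufs4 and Ndufs6 of the N module, Ndufs7 and Ndufa9 of the Q module and its neighbours, and Ndufc1 of the proximal membrane arm. In each the motif reads in the direction of the gene and begins 22 to 35 bases after the RefSeq start. They are shown as 30 bases around the motif, 5′ to 3′ on the strand of the gene, with the motif in capitals.
Ndufs4: tggcgtttgcctacaggAAGATGGCGgcgg
Ndufs6: ggtcaagggtcaccggcAAGATGGCGgcgg
Ndufs7: gtctgaaggccgaggccAAGATGGCGgcgc
Ndufa9: gtgaggcattgtgggagAAGATGGCGgccg
Ndufc1: ggcggagcctgcggaacAAGATGGCGccgt
These windows lie at chr13:114388047-114388076 (minus strand), chr13:73328437-73328466 (minus), chr10:80249456-80249485 (plus), chr6:126849103-126849132 (minus) and chr3:51408921-51408950 (minus), in that order. The 5 genes rose by 1.22, 1.40, 1.80, 1.68 and 1.80 on the log2 scale from perivascular progenitors to preadipocytes, in the same order, and the other members without this motif covered that range and more.

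The NRF1 motif stood in the promoters of Ndufa11, at chr17:56717682-56717761 (plus strand), and Ndufa8, at chr2:36049339-36049418 (minus), both membrane-arm genes. They are shown as the 80 bases before the start, with the motif, on either strand, in capitals.
Ndufa11: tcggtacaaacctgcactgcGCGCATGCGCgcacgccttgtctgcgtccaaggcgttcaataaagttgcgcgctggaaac
Ndufa8: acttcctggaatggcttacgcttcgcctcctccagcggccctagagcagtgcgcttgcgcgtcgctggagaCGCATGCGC
Ndufa8 rose by 1.73 and Ndufa11 by 1.18 on the log2 scale between the perivascular stages, so the 2 genes with this motif lay above and below the members' median of 1.55.

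For the members with the largest and the smallest called rise in perivascular cells the 250 bases before the start are shown, because they stand at the ends of the range. Ndufc2 (chr7:97399753-97400002, plus strand) held none of the 4 motifs, Ndufb6 (chr4:40279422-40279671, minus) held the ETS motif on the opposite strand, and Ndufb2 (chr6:39592315-39592564, plus) held the estrogen-related receptor motif, each in capitals.
Ndufc2: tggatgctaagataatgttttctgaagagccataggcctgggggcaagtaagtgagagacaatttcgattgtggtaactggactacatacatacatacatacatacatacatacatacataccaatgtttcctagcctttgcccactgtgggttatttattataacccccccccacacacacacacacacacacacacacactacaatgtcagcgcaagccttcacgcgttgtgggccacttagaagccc
Ndufb6: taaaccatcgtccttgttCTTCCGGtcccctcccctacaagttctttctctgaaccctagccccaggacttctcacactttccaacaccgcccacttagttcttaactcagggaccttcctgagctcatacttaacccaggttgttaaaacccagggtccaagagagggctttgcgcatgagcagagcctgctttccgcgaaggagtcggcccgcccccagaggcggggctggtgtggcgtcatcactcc
Ndufb2: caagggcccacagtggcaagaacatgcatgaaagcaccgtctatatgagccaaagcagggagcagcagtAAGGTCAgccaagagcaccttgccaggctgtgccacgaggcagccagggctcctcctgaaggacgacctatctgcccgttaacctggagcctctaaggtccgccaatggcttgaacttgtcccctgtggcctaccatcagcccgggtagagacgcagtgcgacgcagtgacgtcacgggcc

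The comparison of perivascular preadipocytes with perivascular progenitors asks how the members differ between the stages of that depot. Nearly all rose. By edgeR's quasi-likelihood test with Benjamini-Hochberg adjustment over all genes, 36 of the 38 members were higher in preadipocytes at an adjusted p under 0.05 and 0 were lower, where 16.8% of all genes tested were called higher and 16.1% lower. The median log2 fold change was 1.55 over the members and -0.048 over all genes. The calls covered 10 of 10 N module genes, 6 of 6 Q module genes and neighbours, 8 of 9 proximal and 11 of 11 distal membrane-arm genes. Here and below the distal count includes the noncoding row Ndufb1-ps. Ndufa3 and the pseudogene Ndufa11b were not called.

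In the N module, Ndufv1 and Ndufv2 form the site where NADH gives up its electrons and Ndufs1 carries iron-sulfur clusters onward. Ndufv2 was at 163, 135 and 128 CPM in the progenitors and 245, 517 and 651 CPM in the preadipocytes, with no overlap (log2 fold change 1.73, SE 0.28, edgeR adjusted p = 0.00103). Ndufv1 was at 119, 112 and 111 CPM in the progenitors and 200.2, 383 and 407 CPM in the preadipocytes, again apart (1.53, SE 0.22, edgeR adjusted p = 0.000531). Ndufs1 was at 99.5, 112 and 120.1 CPM in the progenitors and 185, 334 and 309 CPM in the preadipocytes (1.32, SE 0.19, edgeR adjusted p = 0.000573). Unlike most members, Ndufs1 was highest in preadipocyte library 2 and not in library 3.

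The accessory N module genes covered a wider range. Ndufa12, Ndufa6 and Ndufs6 rose by 1.70, 1.70 and 1.40 on the log2 scale, and Ndufs4, whose loss in mice gives a model of Leigh syndrome, by 1.22. Ndufv3 rose by 1.08 and Ndufa7 by 0.91. Ndufa7 was among the 3 called members with the smallest rise, at 115, 97.2 and 78.0 CPM in the progenitors and 113, 179.8 and 255 CPM in the preadipocytes. Preadipocyte library 1 lay within the range of the progenitors for this gene.

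In the Q module, Ndufs7 and Ndufs8 hold the last iron-sulfur clusters before ubiquinone. Ndufs7 had the largest rise of the module, from 119.7, 107 and 95.4 CPM in the progenitors to 196, 409 and 521 CPM in the preadipocytes (1.80, SE 0.29, edgeR adjusted p = 0.000936). Ndufs8 rose by 1.56 and Ndufs3 by 1.53 on the log2 scale. All 7 nuclear-encoded core subunits, the ones that carry the electrons and have relatives in bacteria, were called, with a median of 1.53.

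The members with the largest rise were membrane-arm accessory genes. Ndufc2, a proximal membrane-arm subunit, was at 72.7, 78.2 and 63.0 CPM in the progenitors and 149, 339 and 466 CPM in the preadipocytes (2.15, SE 0.31, edgeR adjusted p = 0.00055). Every preadipocyte library lay above every progenitor library. Ndufb6, of the distal membrane arm, was at 43.5, 41.2 and 35.2 CPM in the progenitors and 73.6, 180.8 and 243 CPM in the preadipocytes (2.05, SE 0.33, edgeR adjusted p = 0.00102). Of its exon length 39.0% overlaps Smim27 on the other strand, and whether counting used strand is not given, so its reads may be shared. Ndufb9 rose by 1.87, with 19.5% of its exon length shared with Gm49356 on the same strand, and Ndufc1 by 1.80.

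The smallest values also came from the membrane arm. Ndufa1, an X-linked gene, was at 127, 101 and 96.3 CPM in the progenitors and 119, 189 and 266 CPM in the preadipocytes (0.82, SE 0.25, edgeR adjusted p = 0.0249), and the groups overlapped. Ndufa3 was at 93.2, 89.1 and 65.0 CPM in the progenitors and 81.3, 131 and 185 CPM in the preadipocytes, a difference that did not pass the test (0.68, SE 0.26, edgeR adjusted p = 0.0574). Ndufb2 was at 15.0, 16.5 and 16.3 CPM in the progenitors and 17.4, 23.1 and 29.6 CPM in the preadipocytes (0.55, SE 0.20, edgeR adjusted p = 0.0468). Its groups did not overlap, but the adjusted p lies next to the threshold and the call was lost with a replicate block. Ndufa4 rose by 1.42, from 235, 209 and 174 CPM to 267, 576 and 813 CPM. The pseudogene Ndufa11b held only 37 counts over the progenitors and 52 over the preadipocytes and was not called (0.39, SE 0.45).

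Within each pool of mice the median member difference between the perivascular stages was 0.54, 1.62 and 2.19 in pools 1, 2 and 3, with 35, 37 and 38 of 38 members higher in preadipocytes. Without preadipocyte library 1 the members called were 37 of 38 and the median was the highest of the fits that left out 1 library, at 1.81.

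**Figure D2:**
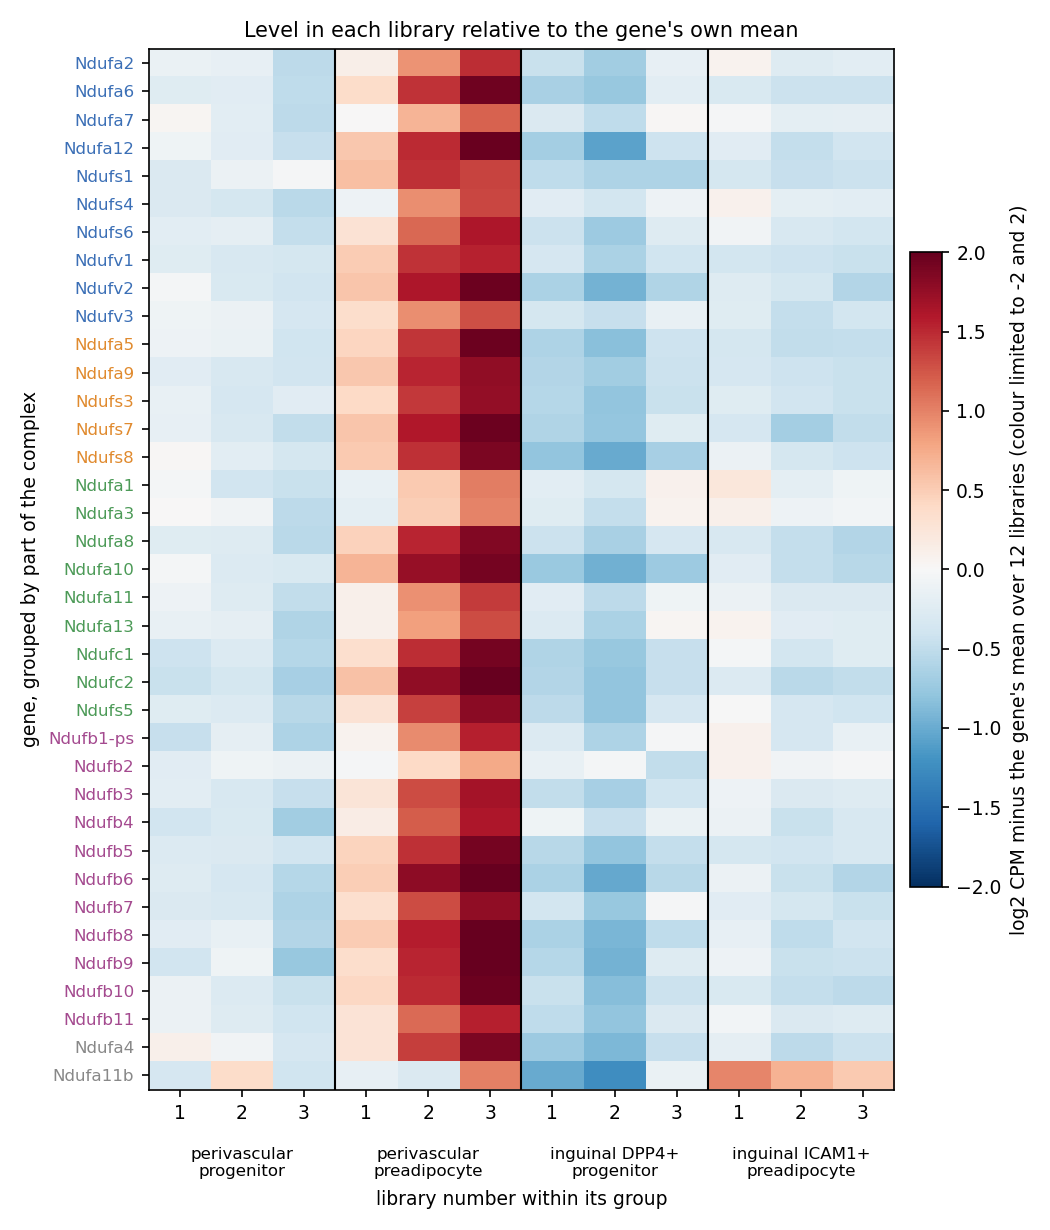
Level of each member reported (rows, coloured by part of the complex) in each library (columns), as log2 CPM minus that gene's mean over the 12 libraries. Red marks the perivascular preadipocyte libraries for nearly every row, palest in library 1, while Ndufa11b is highest in perivascular preadipocyte library 3 and in the ICAM1+ libraries.

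The scaling between libraries cancels when each member is given as a share of the members' sum, and on that measure the perivascular stages lay apart for some members. Ndufc2 made up 2.31% ± 0.154 (SD, n = 3) of the sum in perivascular progenitors and 3.54% ± 0.376 in preadipocytes, and 2.47% ± 0.0648 and 2.44% ± 0.0405 in DPP4+ and ICAM1+ cells. Ndufs7 made up 3.48% ± 0.0885 in the perivascular progenitors and 4.28% ± 0.136 in the preadipocytes. Ndufa1 went the other way, with 3.51% ± 0.301 in perivascular progenitors and 2.24% ± 0.24 in preadipocytes, and so did Ndufa3, with 2.66% ± 0.259 and 1.55% ± 0.149. For these 4 genes the libraries of the perivascular groups did not overlap. Shares are bound to each other, and no test was run on them.

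Levels of different genes can be compared per length, and were set per kilobase of the longest annotated coding transcript (RPKM on TMM-adjusted totals). Ndufa4 was the highest member in both perivascular groups, at 337 RPKM in progenitors and 905 in preadipocytes, and Ndufa1 in both inguinal groups, at 284 in DPP4+ and 312 in ICAM1+ cells. The median member lay at 76.3, 228, 59.7 and 70.7 RPKM in perivascular progenitors, perivascular preadipocytes, DPP4+ and ICAM1+ cells. Ndufc2 ranked 11 of 38 in perivascular progenitors and 2 in perivascular preadipocytes. The lowest coding member was Ndufb2, between 3.5 and 5.3 RPKM in the group means, which rests on an annotated transcript of 4371 bases. Below it stood only Ndufa11b, between 1.04 and 2.83 RPKM.

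The comparison of ICAM1+ preadipocytes with DPP4+ progenitors is the stage comparison of inguinal fat. None of the 38 members was called higher or lower by edgeR, where 9.34% of all genes were called higher and 8.61% lower. DESeq2 also called 0, and 1 member had an unadjusted p under 0.05 in either tool. The median log2 fold change was 0.18 over the members and 0.024 over all genes, and 36 of 38 estimates were above 0.

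The largest value belonged to the pseudogene Ndufa11b, at 0.36, 0.30 and 0.66 CPM in the DPP4+ libraries and 1.41, 1.16 and 1.03 CPM in the ICAM1+ libraries (1.44, SE 0.48, edgeR adjusted p = 0.056), from 17 and 73 counts over the groups. Ndufs8 was at 60.6, 51.9 and 66.3 CPM in the DPP4+ libraries and 96.1, 82.0 and 78.4 CPM in the ICAM1+ libraries (0.52, 95% interval -0.052 to 1.09). Ndufa10, a proximal membrane-arm gene, was at 70.9, 60.7 and 71.4 CPM and at 100.9, 85.0 and 80.3 CPM (0.39, interval -0.15 to 0.93). The groups of these 3 genes did not overlap, and nor did those of others such as Ndufc1 and Ndufb8, yet the differences did not pass the test. How many of all genes separate in this way was not counted. For Ndufc2, the member with the largest rise in perivascular cells, the inguinal difference was 0.17 with an interval from -0.48 to 0.82. Scaled by library totals in place of TMM, the members called higher were 3 and their median was 0.56, but the median over all genes was then 0.40, and a fit of the inguinal groups alone called 4. Leaving out 1 library gave 0 to 2 calls, with 2 without perivascular preadipocyte library 1 and 1 without perivascular preadipocyte library 3 or DPP4+ library 3.

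**Figure D3:**
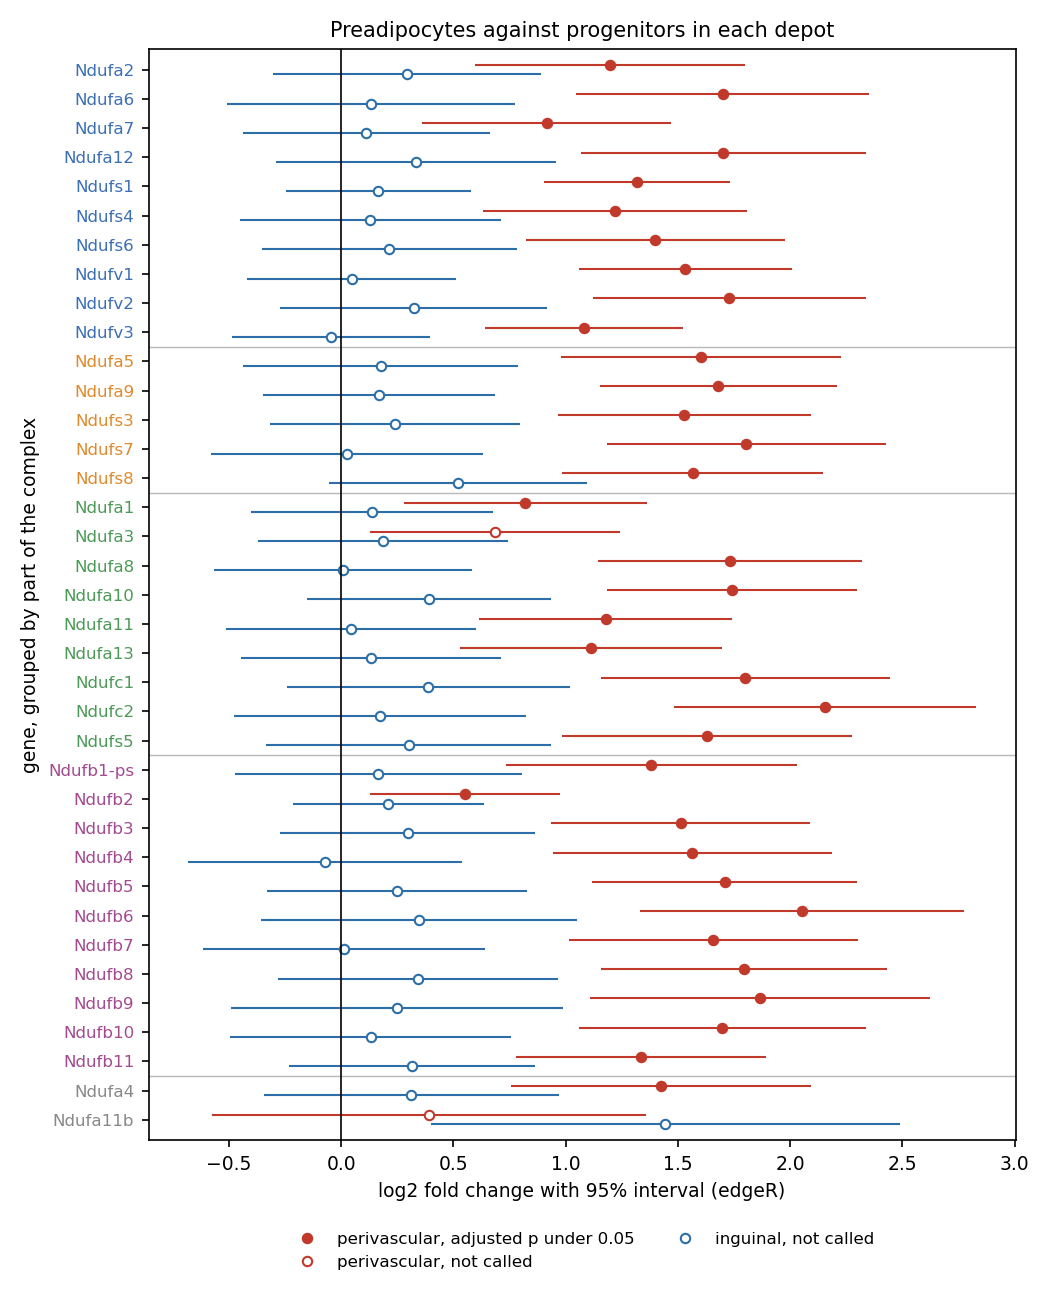
Log2 fold change from progenitors to preadipocytes for each member reported, in perivascular cells (red) and inguinal cells (blue), with 95% intervals from edgeR. Filled points passed an adjusted p of 0.05. Over all 38 members the medians were 1.55 in perivascular and 0.18 in inguinal cells, and Ndufa11b alone lies further right in the inguinal comparison.

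The difference between these stage changes was tested as an interaction of depot and stage in the same fit. For 25 of 38 members the perivascular change was larger than the inguinal change, and for 0 it was smaller, where 6.37% of all genes were called in the first direction and 8.66% in the other. The median difference was 1.31 on the log2 scale, against -0.0032 over all genes, and 34 members had an unadjusted p under 0.05. The calls held 7 of 10 N module genes, 5 of 6 Q module genes and neighbours, 5 of 9 proximal and 8 of 11 distal membrane-arm genes. Among the core subunits 6 of 7 were called, with Ndufs8 the exception (1.04, edgeR adjusted p = 0.0777).

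Ndufc2 had the largest difference (1.98, SE 0.43, edgeR adjusted p = 0.00917), followed by Ndufs7 (1.78, SE 0.40, edgeR adjusted p = 0.0112) and Ndufa8, a proximal membrane-arm gene (1.72, SE 0.38, edgeR adjusted p = 0.0101). Ndufb6 and Ndufb7 of the distal arm followed at 1.71 and 1.65. The smallest called differences were those of Ndufs6 (1.18, edgeR adjusted p = 0.0497), Ndufs1 (1.15, edgeR adjusted p = 0.0136) and Ndufv3 (1.13, edgeR adjusted p = 0.0213). Ndufs4 at 1.09, Ndufa4 at 1.11 and Ndufa1 at 0.68 were not called.

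Since libraries of a number share a pool, the interaction was also fitted with the pool as a replicate block, which called 13 members, all of them among the 25. DESeq2 called 30 and scaling by library totals 13. The count moved by more than 1.5 times when single libraries were left out: to 15 and 8 without perivascular progenitor library 2 or 3, to 9 and 12 without perivascular preadipocyte library 2 or 3, to 11 and 8 without DPP4+ library 1 or 3, and to 13, 7 and 8 without ICAM1+ library 1, 2 or 3. The calls of 7 members held in all 12 such fits.

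The comparison of perivascular with inguinal ICAM1+ preadipocytes addresses the depot difference at the later stage. Of the 38 members 34 were higher in perivascular preadipocytes and 0 lower, where 23.5% of all genes were called higher and 21.4% lower by edgeR. The median log2 fold change was 1.62 over the members and 0.042 over all genes. The calls held 10 of 10 N module genes, 6 of 6 Q module genes and neighbours, 7 of 9 proximal and 10 of 11 distal membrane-arm genes, and 7 of 7 core subunits. This comparison and the perivascular stage comparison share the perivascular preadipocyte libraries, so their lists are not independent.

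Ndufc2 was at 82.4, 68.3 and 70.4 CPM in the ICAM1+ libraries, all below the 149 to 466 CPM of the perivascular preadipocytes given above (2.11, SE 0.31, edgeR adjusted p = 0.00022). Ndufb6 was at 47.8, 38.3 and 34.7 CPM in the ICAM1+ libraries, below 73.6 CPM, the lowest perivascular value (2.04, SE 0.33, edgeR adjusted p = 0.000432). Ndufs7 was at 106, 84.2 and 95.6 CPM in the ICAM1+ libraries (1.98, SE 0.29, edgeR adjusted p = 0.000205). Ndufa10 was at 189, 397 and 446 CPM in the perivascular preadipocytes, apart from its ICAM1+ values (1.96, SE 0.26, edgeR adjusted p = 0.000107). Ndufv2 was at 139.9, 131 and 112 CPM in the ICAM1+ libraries (1.89, SE 0.28, edgeR adjusted p = 0.000247).

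Further core subunits differed by similar amounts. Ndufs8, Ndufs3, Ndufv1 and Ndufs1 were higher by 1.68, 1.65, 1.64 and 1.60 on the log2 scale. The smallest called differences were 0.95 for Ndufa13, 0.93 for Ndufs4 and 0.83 for Ndufa7. Ndufs4 was at 104, 85.6 and 84.2 CPM in the ICAM1+ libraries and 90.9, 186 and 246 CPM in the perivascular preadipocytes, so library 1 lay within the inguinal range. Ndufa13 shares 29.98% of its exon length with Tssk6 on the other strand.

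The 4 members not called in this comparison were Ndufa1 (0.55, SE 0.25, edgeR adjusted p = 0.0892), Ndufa3 (0.53, SE 0.26), Ndufb2 (0.41, SE 0.20) and Ndufa11b (-0.43, SE 0.43). Ndufa1 was at 153, 115 and 124 CPM in the ICAM1+ libraries, a range that holds preadipocyte library 1 of the perivascular group. Within pools 1, 2 and 3 the median member difference was 0.58, 1.83 and 2.18. Leaving out single libraries gave between 30 and 37 called members.

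The depot comparison of the progenitors called no member. Of the 38, 0 were called higher and 0 lower by edgeR, where 13% of all genes were called higher and 11.8% lower. DESeq2 called 0 as well, and 3 members had an unadjusted p under 0.05 in edgeR and 2 in DESeq2. The median log2 fold change of perivascular over DPP4+ progenitors was 0.19 over the members and 0.054 over all genes, and 31 of 38 estimates were above 0.

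Ndufs8 had the largest value, at 106, 89.8 and 82.1 CPM in perivascular progenitors and 60.6, 51.9 and 66.3 CPM in DPP4+ progenitors (0.64, 95% interval 0.065 to 1.21, edgeR adjusted p = 0.0995). Ndufa11b followed at 0.62, with an interval from -0.47 to 1.71, and then Ndufa10 at 0.60, with an interval from 0.06 to 1.15. Values of further core subunits were 0.48 for Ndufv2, 0.45 for Ndufs1, 0.36 for Ndufs3, 0.20 for Ndufs7 and 0.15 for Ndufv1. Ndufs4 stood at -0.16 and Ndufa1 at -0.13. Median differences within pools 1, 2 and 3 were 0.28, 0.47 and -0.15, so pool 3 had the opposite sign.

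The count of 0 changed with libraries outside the comparison, which share its fit. Without perivascular preadipocyte library 1, 6 members were called higher, among them Ndufs1, Ndufs8, Ndufv2, Ndufa4 and Ndufa10, and a fit of the progenitor groups alone also called 6, of 37 that passed its filter. Without perivascular preadipocyte library 3 the count was 1. Scaling by library totals called 13, with a median of 0.63 over the members and 0.48 over all genes.

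**Figure D4:**
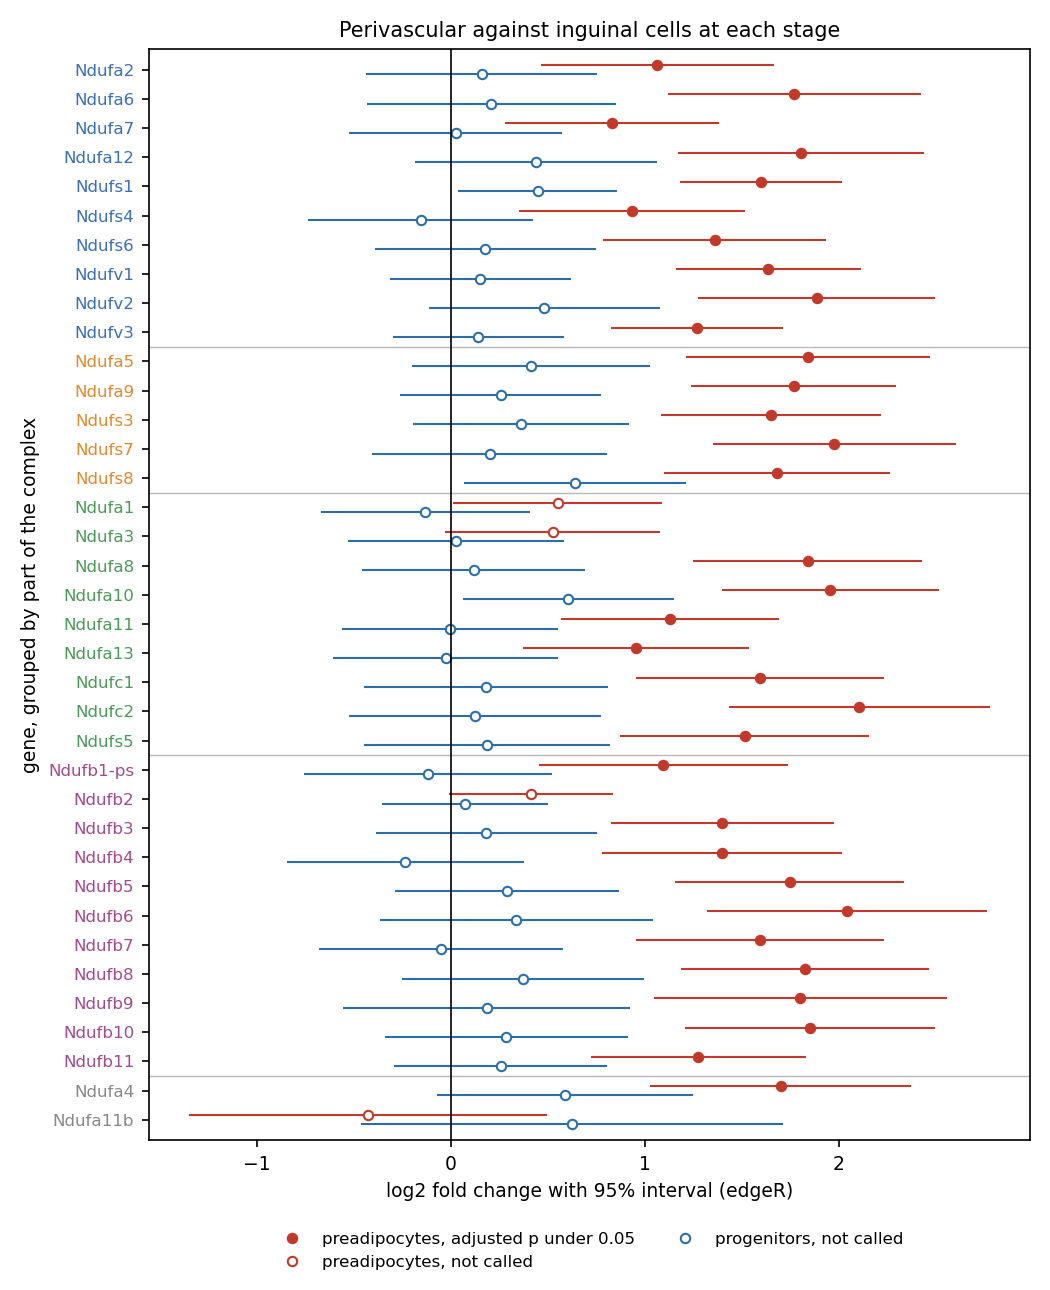
Log2 fold change of perivascular over inguinal cells for each member reported, in preadipocytes (red) and progenitors (blue), with 95% intervals from edgeR; filled points passed an adjusted p of 0.05. Over all 38 members the median was 1.62 with 34 called in preadipocytes, and 0.19 with 0 called in progenitors.

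A further 7 subunits of complex I, ND1 to ND6 with ND4L, are encoded by the mitochondrial genome. Their summed level was 2419, 2000 and 2194 CPM in perivascular progenitors, 2443, 5122 and 6020 CPM in perivascular preadipocytes, 1283, 1280 and 1239 CPM in DPP4+ progenitors, and 1887, 1713 and 1594 CPM in ICAM1+ preadipocytes. The perivascular progenitors lay above both inguinal groups on this sum. By edgeR 5 of 7 were higher in perivascular than in DPP4+ progenitors, with a median of 0.82, where 13% of all genes were called higher. The same fit called 0 of the 38 nuclear members there, a count that changed under other settings. ND4L lay near the floor, with 44 counts over the perivascular and 7 over the DPP4+ progenitors and at most 0.31 CPM in the inguinal libraries. In preadipocytes 6 of 7 were higher in perivascular cells (median 1.27), against 23.5% of all genes. Between the perivascular stages 4 of 7 rose (median 0.99), against 16.8% of all genes. In inguinal cells ND6 alone was higher in ICAM1+ cells (0.74, SE 0.23, edgeR adjusted p = 0.0391).

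ND5, a proton channel of the distal membrane arm, was at 477, 482 and 512 CPM in perivascular progenitors and 319, 297 and 216 CPM in DPP4+ progenitors (0.82, SE 0.24, edgeR adjusted p = 0.0252). ND1, which closes the ubiquinone site, rose by 1.22 between the perivascular stages (SE 0.28, edgeR adjusted p = 0.0061). None of the 7 was called in the interaction (0 at an unadjusted p under 0.05 in edgeR; 0 called and 1 at an unadjusted p under 0.05 in DESeq2), with a median of 0.37. Without perivascular preadipocyte library 1 the ND genes called were 3 in the interaction, 6 between the perivascular stages and 5 between the inguinal stages. The libraries were made from poly(A) RNA, and how far that selection takes up mitochondrial transcripts was not tested.

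Most genes for the assembly of the complex were, like the nuclear subunits, higher in perivascular preadipocytes. Of 17 listed assembly factors 16 were matched in the table. By edgeR 14 of 16 were higher in perivascular than in ICAM1+ preadipocytes (median 1.28), against 23.5% of all genes. Between the perivascular stages 14 of 16 rose (median 1.21), against 16.8% of all genes. In the progenitors 3 of 16 were higher in perivascular cells (Ndufaf4, Ecsit and Tmem186), against 13% of all genes. Between the inguinal stages 0 of 16 was called, with 0 by DESeq2 and 0 at an unadjusted p under 0.05 in either tool. The interaction called 6 as larger in perivascular cells (12 called by DESeq2), against 6.37% of all genes. Ndufaf6 was at 13.6, 8.17 and 6.22 CPM in perivascular progenitors and 24.5, 48.8 and 61.7 CPM in preadipocytes, a rise of 2.27 (SE 0.33, edgeR adjusted p = 0.00061). Ndufaf4 rose by 1.85 and Ndufaf1 by 1.44. Tmem126b lay at 0.15 (SE 0.13) between the perivascular stages and was not called in any of the 5 comparisons.

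Ndufab1, the mitochondrial acyl carrier protein also a subunit of the complex but not matched by the rule, was at 49.0, 54.1 and 43.0 CPM in perivascular progenitors and 92.0, 200.4 and 259.5 CPM in perivascular preadipocytes. It rose by 1.92 (SE 0.28, edgeR adjusted p = 0.000602), within the range of the members. Ndufa4l2, a paralogue of Ndufa4 known as a hypoxia-responsive gene, did not follow them. It was at 13.3, 12.4 and 12.5 CPM in perivascular progenitors, 19.4, 7.43 and 7.62 CPM in perivascular preadipocytes, 5.43, 3.26 and 4.43 CPM in DPP4+ cells and 8.09, 7.55 and 9.30 CPM in ICAM1+ cells. Between the perivascular stages its difference was -0.15 (SE 0.33), while perivascular progenitors were above DPP4+ progenitors (1.54, SE 0.35, edgeR adjusted p = 0.00566).

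The other respiratory complexes were called in the same comparisons. Of the listed nuclear genes, 4 of 4 of complex II, 9 of 9 of complex III, 10 of 10 of complex IV and 15 of 15 of complex V were higher in perivascular preadipocytes than in perivascular progenitors and than in ICAM1+ preadipocytes. Their median rise between the perivascular stages was 1.44, 1.95, 1.77 and 1.49 in that order, with the complex I members at 1.55. The interaction called 4, 8, 7 and 10 of them, and neither the progenitor depot comparison nor the inguinal stage comparison called any, by edgeR or DESeq2; 1 complex III gene had an unadjusted p under 0.05 in the progenitors in each tool, and 0 of the 38 genes did between the inguinal stages.

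**Figure D5:**
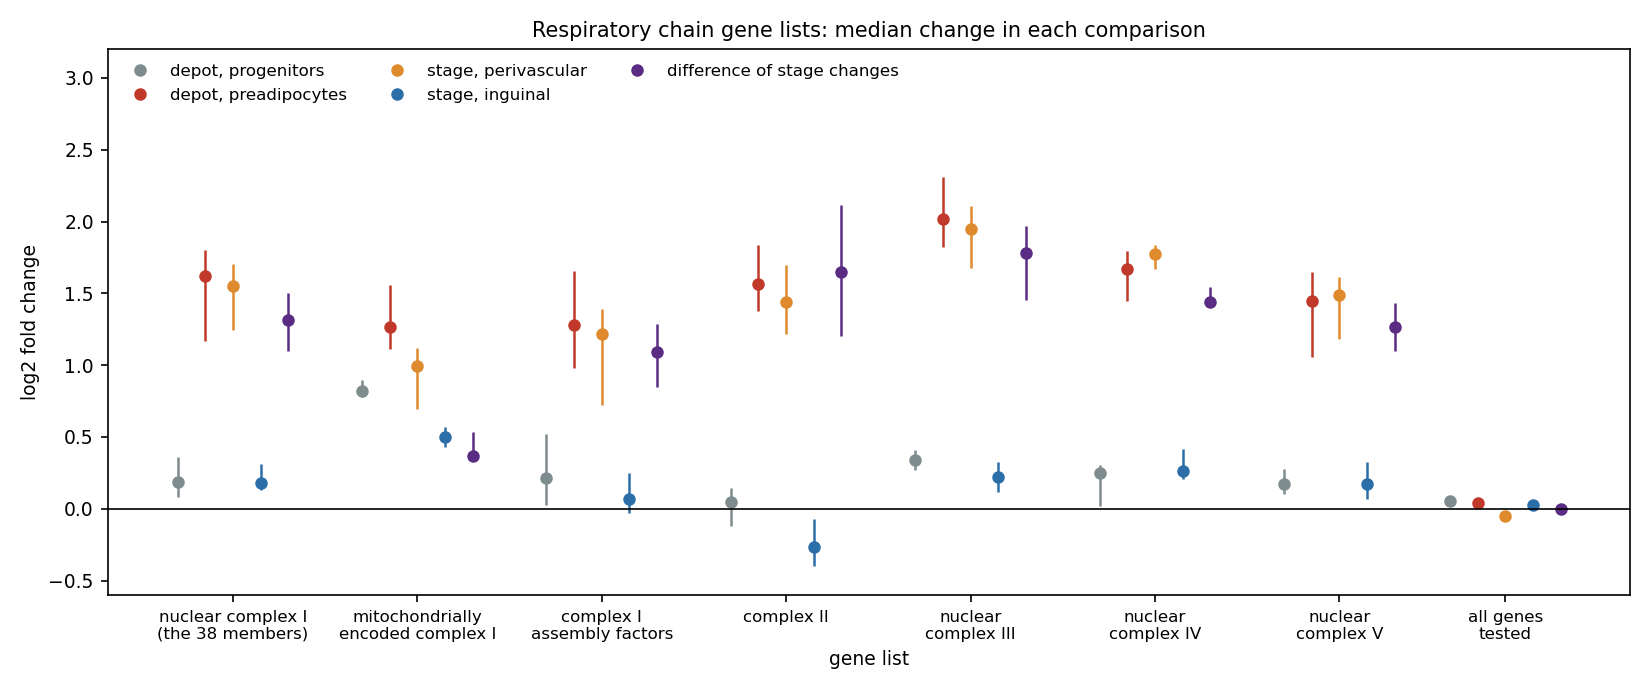
Median log2 fold change (points) with the middle 50% of genes (lines) for the complex I members, the mitochondrially encoded subunits, the assembly factors and complexes II to V, in the 5 comparisons, beside the median over all genes tested (right). The mitochondrially encoded genes stand at 0.82 in the progenitor depot comparison (grey), where the complex I members stand at 0.19.

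Among 8 listed regulators of mitochondrial genes, 5 were higher in perivascular preadipocytes in both comparisons that hold that group: Ppargc1a, Ppargc1b, Esrra, Esrrg and Tfam. Ppargc1a, a coactivator that drives mitochondrial gene expression in brown fat, was at 3.82, 4.43 and 4.27 CPM in perivascular progenitors and 17.6, 43.5 and 38.6 CPM in preadipocytes (2.99, SE 0.43, edgeR adjusted p = 0.000527). It was at most at 1.52 CPM in the inguinal libraries and was also higher in perivascular than in DPP4+ progenitors (2.08, SE 0.48, edgeR adjusted p = 0.00701). The same fit called no member in that comparison, a count that changed under other settings. Of the factors whose motifs were searched in the promoters, the estrogen-related receptor genes Esrra and Esrrg rose by 1.61 and 1.04 between the perivascular stages, and Esrrg was also higher in perivascular than in DPP4+ progenitors. Yy1, Nrf1 and Gabpa were not called in any comparison, with values from -0.45 to 0.44.

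Markers of other cell types and states also differed between the groups, some in the members' direction and some against it. Of 7 striated muscle markers 6 were tested, and 4 were higher in perivascular preadipocytes than in ICAM1+ cells and than in perivascular progenitors. Their summed level was 12.4, 57.2 and 96.4 CPM in perivascular preadipocyte libraries 1, 2 and 3, 9.79 to 11.2 CPM in perivascular progenitors, 2.71 to 6.50 CPM in DPP4+ and 7.09 to 8.07 CPM in ICAM1+ cells. Actc1 and Tnnt2 led this sum with 43.6 and 27.7 CPM in library 3, while Myl2 was at most at 0.27 CPM in that group and Myh6, Tnnt2, Actc1 and Tnni3 were at 0 in DPP4+ library 3. Cell cycle markers summed to 663 to 917 CPM in perivascular preadipocytes and 366 to 457 CPM in perivascular progenitors. Their sums were 50.9 to 72.2 CPM in DPP4+ and 212 to 249 CPM in ICAM1+ cells. In each of the 4 comparisons between groups 6 of 6 were called higher. These include the progenitor depot and inguinal stage comparisons, where no member was called. In the interaction 3 of 6 were called lower, with a median of -1.06, where the members' median was 1.31. Of 10 adipocyte markers 9 rose between the perivascular stages. Mesothelial markers went the other way, with 4 of 6 lower in perivascular preadipocytes than in progenitors, at 29.9 to 69.8 against 125 to 227 CPM. Progenitor and fibroblast markers were also lower, with 4 of 5 called between the perivascular stages, and summed to 1409 to 1870 CPM in the progenitors and 566, 327 and 217 CPM in preadipocyte libraries 1, 2 and 3. Library 1 was thus the highest of its group for these markers and the lowest for the members. Endothelial markers summed to 40.3 to 68.3 CPM in perivascular preadipocytes and 158 to 218 CPM in the progenitors, with 3 of 6 lower. Tek made up most of the progenitor sum, at 97.3 to 137 CPM, and was at 8.58 to 20.7 CPM in the preadipocytes. Its mean was 684 CPM in DPP4+ cells, where Pecam1 had a mean of 38.7 CPM. For 1 of the 6, Cldn5, the estimate was above 0, with means of 8.91 CPM in progenitors and 11.5 CPM in preadipocytes. Of the smooth muscle markers 2 of 5 were higher, at 305 to 440.3 against 186 to 276 CPM. Of the haematopoietic, erythroid and Schwann markers tested, 0 were called between the perivascular stages. The part of these cells or states in the members' values was not tested.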

How the data were processed

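RNA was measured in 12 libraries. Per the submitters' processing notes reads were aligned with STAR 2.5.2a to mm10 and normalised with DESeq2 1.26.0. No source used here names the counting tool, its annotation or its use of strand. The deposited table holds raw counts per gene, made by the authors, and its columns were assigned to samples by name, with 0 left over; the authors' normalised and regularised tables were not used.

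Genes were filtered with edgeR 4.0.16 filterByExpr (groups, minimum count 10), scaled by TMM and fitted with its quasi-likelihood method, all 4 groups together (limma 3.58.1, R 4.3.3). Tests were two-sided, with Benjamini-Hochberg adjustment over 18855 genes, a call at an adjusted p under 0.05 and 95% intervals. DESeq2 1.42.0, other scalings and filters, the 2 groups alone, a replicate block and leaving out libraries were alternatives. The functions were tested on simulated data. CPM values use TMM-adjusted totals and carry counting error besides the spread between pools. The reads have no molecular identifiers. Positions and exon overlaps come from GENCODE M21 for mouse, which holds 31074 of the 31099 genes.

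The members and lists were chosen with earlier results of these data known. The text names the 5 highest and 3 lowest called members of each comparison (the 3 largest where fewer than 4 were called), the 7 core subunits, Ndufa4, Ndufs4, Ndufs6, Ndufv3, Ndufa1, Ndufab1, Ndufa4l2 and the ends of the per-length range. Other members named were chosen after their values were seen. Per the labels, same-numbered libraries share pools of mice. The correlation of their deviations from the group means had a median of 0.0093 over 18 pairs (-0.213 to 0.153), against 0.0087 over the 36 other pairs. Values of 1 member are not reported here by name; it stays in the counts, sums and medians over members.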

Additional observations from a re-analysis of the deposited data

Results flagged for a closer look

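For 25 members the change from progenitors to preadipocytes differed between perivascular and inguinal cells by the test of the interaction itself (edgeR, adjusted over all genes), and in each it was larger in perivascular cells. The log2 differences among genes of the membrane arm were 1.98 for Ndufc2, 1.72 for Ndufa8, 1.71 for Ndufb6, 1.65 for Ndufb7, 1.64 for Ndufb4, 1.62 for Ndufb9, 1.57 for Ndufb10, 1.46 for Ndufb5, 1.45 for Ndufb8, 1.41 for Ndufc1, 1.35 for Ndufa10, 1.33 for Ndufs5 and 1.22 for Ndufb3. Those in the N module were 1.56 for Ndufa6, 1.49 for Ndufv1, 1.41 for Ndufv2, 1.37 for Ndufa12, 1.18 for Ndufs6, 1.15 for Ndufs1 and 1.13 for Ndufv3. In the Q module and its neighbours they were 1.78 for Ndufs7, 1.51 for Ndufa9, 1.43 for Ndufa5 and 1.29 for Ndufs3. With the pool as a replicate block 13 of the 25 were called. Those no longer called were Ndufb6, Ndufb9, Ndufb8, Ndufb3, Ndufc1, Ndufa10 and Ndufs5 of the membrane arm, Ndufv2, Ndufa12 and Ndufs6 of the N module, and Ndufa5 and Ndufs3 of the Q module and its neighbours.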

How the results depend on the processing

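In the comparisons of perivascular preadipocytes with perivascular progenitors and with ICAM1+ cells, the counts of members called stayed within 1.5 times of 36 and 34 under every alternative run. Over these comparisons and the interaction, no direction reversed among the called members that the naming rule picked: 628 of their recomputed values kept their side of the threshold and 64 fell below it. The count for the progenitors, 0, became 13 with library totals (median 0.63), 6 with the 2 groups alone and 0 to 6 with 1 library left out. It became 3 without a set of 3 libraries named by hand, DPP4+ library 2 and library 1 of both perivascular groups. No rule is given for this set. Over the members, perivascular progenitor library 1 deviated from its group by a median of 0.16, and library 3, which was kept, by -0.26. The count for the inguinal stages, 0, became 3 with library totals (median 0.56) and 4 with the 2 groups alone. It was 1 without those 3 libraries and 0 to 2 with 1 library left out. The interaction count of 25 became 13 with library totals, 36 without those 3 libraries and 7 to 35 with 1 library left out. With the replicate block, the pairing by pools, it was 13; the block called 34, 35 and 0 members in the other comparisons, losing Ndufb2 between the perivascular stages and changing no other call. The causes were not tested. Leave-one-out fits that keep 2 libraries in a group take part of the spread from the other groups. With 3 pools a group intervals are wide, such as 0.065 to 1.21 for Ndufs8 in progenitors.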
